A study of Mus musculus with 15 samples.

Results

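The comparison was between 3 pools of cells labelled renal vesicle, taken at P4, and 3 pools labelled cap mesenchyme, taken at P3, out of 15 pools of green fluorescent cells sorted from kidneys of newborn Crym-EGFP mice, with 3 pools at each of 5 days from P0 to P4. The members were chosen by sample title and not by any measured value. All pools came from the Tg(Crym-EGFP)82Gsat line on a CD-1 background, in which Crym regulatory sequence drives enhanced green fluorescent protein. The sorted cells are thus those that held this protein. The pups were raised by CD-1 foster mothers, their sex was recorded as unknown, and about 4 kidneys went into each pool. The P3 pools were staged TS27 and the P4 pools TS28. No treatment or other allele separated them. RNA was amplified in 1 round and hybridised to whole-transcript arrays. Since the compartment named in the labels changed at the same step as the age, an effect of compartment and an effect of 1 more day cannot be told apart here. The submitters' design text names cap mesenchyme as the source on every day. The sort gate was not given, and nothing in the labels ties a pool to its own litter, so the p-values below measure the spread between these pools, which may be technical.

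The cap mesenchyme is the population of nephron progenitors that condenses around each tip of the branching ureteric bud. Its transcription factors, with Six2 among them, hold the cells in an undifferentiated state, while Wnt9b from the bud and Wnt4 in the induced cells start a mesenchymal-to-epithelial transition through the pretubular aggregate. The renal vesicle is the first epithelial structure that results. It is a small polarised sphere with a basement membrane and cell junctions, and its distal side, next to the bud, and its proximal side later give rise to the distal tubule and the loop of Henle, to the proximal tubule and to the podocytes. In the mouse the last progenitors differentiate in the first days after birth.

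The unit throughout is the deposited log2 signal of a gene's probe set, and a difference of 1 is a 2-fold change. Of 19938 genes on the array, 11885 passed a filter on dim genes, a value above the median of all values (log2 6.86, called the floor here) in at least 3 arrays. The fit was a linear model (limma) over all 15 pools with a mean for each day and a block for the array set, because the first replicate of every day stood apart from replicates 2 and 3. Every adjusted p between P3 and P4 is from this fit unless another fit is named. The means compared are of 3 against 3 pools, and the spread is estimated from all 15. The 3 values of a day are given in replicate order. The interquartile range of the values was 2.14 to 2.27 in the 5 first replicates and 2.52 to 2.77 in the other pools, and the first principal component, with 35.3% of the variance, separated the same 5 arrays from the rest. P3 replicate 3 lay alone on the third component (11.2%). Xist, the RNA that coats the inactive X chromosome in female cells, was 11.00, 9.83 and 10.60 in the P3 pools and 5.92, 5.13 and 5.36 in the P4 pools. This difference did not pass the test (adjusted p = 0.0605, SE 1.35) and passed it with the 3 replicate numbers as a block (adjusted p = 0.0465). In the limma fit of the 6 P3 and P4 pools alone, with a replicate block, it was -5.01 (SE 0.14, adjusted p = 6.79e-05). Low Xist was also found in P0 replicate 1 (5.24) and P1 replicate 2 (5.27). The Y-linked Eif2s3y was 7.46, 8.41 and 7.03 at P3 and 8.71, 8.56 and 8.04 at P4, so RNA from male animals was present at both days. The level of Xist was under the floor in every P4 pool and above it in every P3 pool. The sex make-up of the pools thus changed at the same step as the age and the compartment label. Effects of these 3 cannot be told apart here. With the Xist level as a covariate in the fit, 61 genes were called higher and 20 lower at P4, and all the genes called below kept their sign. Since Xist moves with the day, such a fit removes much of the day as well, and the part of sex make-up in any single difference was not tested.

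Between P3 and P4, 398 genes (3.35% of 11885) differed at an adjusted p under 0.05. Higher levels at P4 were found for 257 genes (2.16%), of which 76 (0.639% of all) changed 2-fold or more, and lower levels for 141 (1.19%), of which 30 (0.252%) changed 2-fold or more. The median difference was 0.77 among the rises and -0.70 among the falls, beside 0.01 over all genes tested. All 398 had the same sign in each of the 3 same-numbered pairs, and in 334 of them the P3 and P4 pools did not overlap, which was the case for 9.15% of all genes tested (4.98% with P4 above and 4.16% with P4 below). The 398 were called from these same pools, so both counts are in part a consequence of the selection. Leaving out 1 of the 6 pools at a time kept 184 of the 398 in every fit. The number of rises then ran from 157 (without P4 replicate 2) to 311 (without P3 replicate 2) and that of falls from 70 (without P4 replicate 3) to 182 (without P3 replicate 3), beside 182 rises and 83 falls without P3 replicate 1 and 209 rises and 126 falls without P4 replicate 1.

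**Figure D1:**
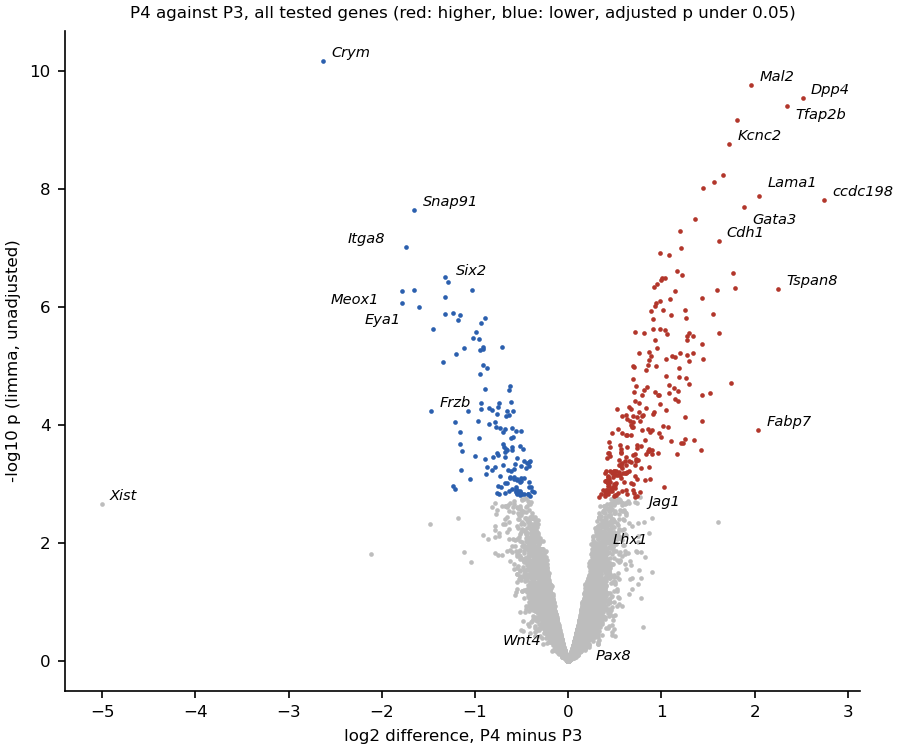
Each point is 1 of 11885 genes, with the log2 difference of P4 minus P3 on the horizontal axis and -log10 of the unadjusted limma p on the vertical axis. The 257 genes called higher are red and the 141 called lower are blue. Crym lies alone at the upper left, Dpp4, Tfap2b and Mal2 at the upper right, Wnt4 and Pax8 near 0, and Xist far to the left among the genes not called.

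Genes of the nephron progenitor state were among the largest falls. Crym, whose regulatory sequence marks the sorted cells and whose product, mu-crystallin, binds thyroid hormone, was 10.55, 10.51 and 10.24 at P3, against 7.98, 7.68 and 7.75 at P4. It fell by 2.63 on the log2 scale (SE 0.16, 6.19-fold, adjusted p = 8.04e-07), and no other tested gene had a smaller p. Six2, the transcription factor required for progenitor self-renewal, was 9.93, 9.76 and 9.49 in the P3 pools and 8.11, 8.68 and 8.52 in the P4 pools and fell by 1.29 on the log2 scale (SE 0.15, 2.45-fold, adjusted p = 0.000158). Every P4 pool lay below every P3 pool for each of these genes, and each P4 pool still lay above the floor.

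Lower levels at P4 were also found for 3 other genes that mark the cap. The homeobox gene Meox1 was 9.00, 8.73 and 8.33 at P3 and 6.92, 6.60 and 7.18 at P4. It fell by 1.78 on the log2 scale (SE 0.21, 3.44-fold, adjusted p = 0.000177), and P4 replicate 2 lay under the floor. Eya1, which acts with transcription factors of the Six2 family upstream of the kidney inducer Gdnf, was 10.13, 10.37 and 10.37 at P3, against 9.05, 8.83 and 8.18 at P4. It fell by 1.60 on the log2 scale (SE 0.20, 3.04-fold, adjusted p = 0.000269). Itga8, the integrin subunit through which the cap receives nephronectin from the bud, was 9.81, 9.47 and 9.39 in the P3 pools and 8.08, 8.09 and 7.26 in the P4 pools and fell by 1.75 on the log2 scale (SE 0.18, 3.35-fold, adjusted p = 6.66e-05). The P4 replicate 3 value was the lowest for Eya1 and Itga8, and for all 3 genes the groups did not overlap.

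Of 31 listed cap mesenchyme genes, 30 were on the array and 28 were tested. Of these, 11 fell, none rose and 17 were not called, with a median of -0.47 beside 0.01 over all genes, of which 1.19% fell. Among the members not called were the transcription factors Sall1 (-0.04 ± 0.10, SE, adjusted p = 0.933), Wt1 (-0.13 ± 0.10, 0.647), Pax2 (-0.42 ± 0.12, 0.0709) and Osr1 (-0.74 ± 0.24, 0.136). Pax2 was called without P3 replicate 2 (adjusted p = 0.0122) or with a trended robust eBayes (0.0378), and Osr1 without P4 replicate 1 (-1.13, adjusted p = 0.0038) or within replicates 2 and 3 (0.0323). In 15 of the 28 all P4 pools were below all P3 pools, as in 4.16% of all genes. The summed linear signal of the list, 2 to the power of each value added up over its members on the array, was 17364 to 19734 in the P3 pools and 11098 to 13838 in the P4 pools. Beyond the 5 genes above, the members that fell were the extracellular proteoglycan Spock2 (-1.17 ± 0.15, SE), the cadherin Cdh11 (-1.02 ± 0.14), the Wnt agonist Rspo3 (-0.76 ± 0.14), Meox2 (-0.77 ± 0.15), Gdnf (-0.59 ± 0.14) and the Slit receptor Robo2 (-0.51 ± 0.13), all in log2 units. The count of falls was 8 to 12 with 1 pool left out and lowest without P3 replicate 1, the fit in which 1 member was called higher. Meox2 was no longer called without P3 replicate 1 (adjusted p = 0.0527). The calls of Gdnf and Robo2 were each lost in 4 of the 6 such fits, with adjusted p = 0.0677 to 0.138 for Gdnf and 0.0512 to 0.216 for Robo2, in both without P3 replicate 1, P4 replicate 2 or P4 replicate 3, and for Gdnf also without P3 replicate 2 and for Robo2 without P3 replicate 3. With the Xist covariate, 7 of the 11 falls were called.

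Cited1 departed from this order. It marks the least committed cap cells, and it was 7.83, 7.54 and 7.15 at P3 and 6.72, 7.42 and 7.39 at P4, with overlapping groups. The difference of -0.33 ± 0.30 (SE) was not called (adjusted p = 0.718, 95% interval -0.98 to 0.32), and its sign rested on the first replicates. Its mean had been 9.72 at P0, so that most of the fall lay before P3.

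**Figure D2:**
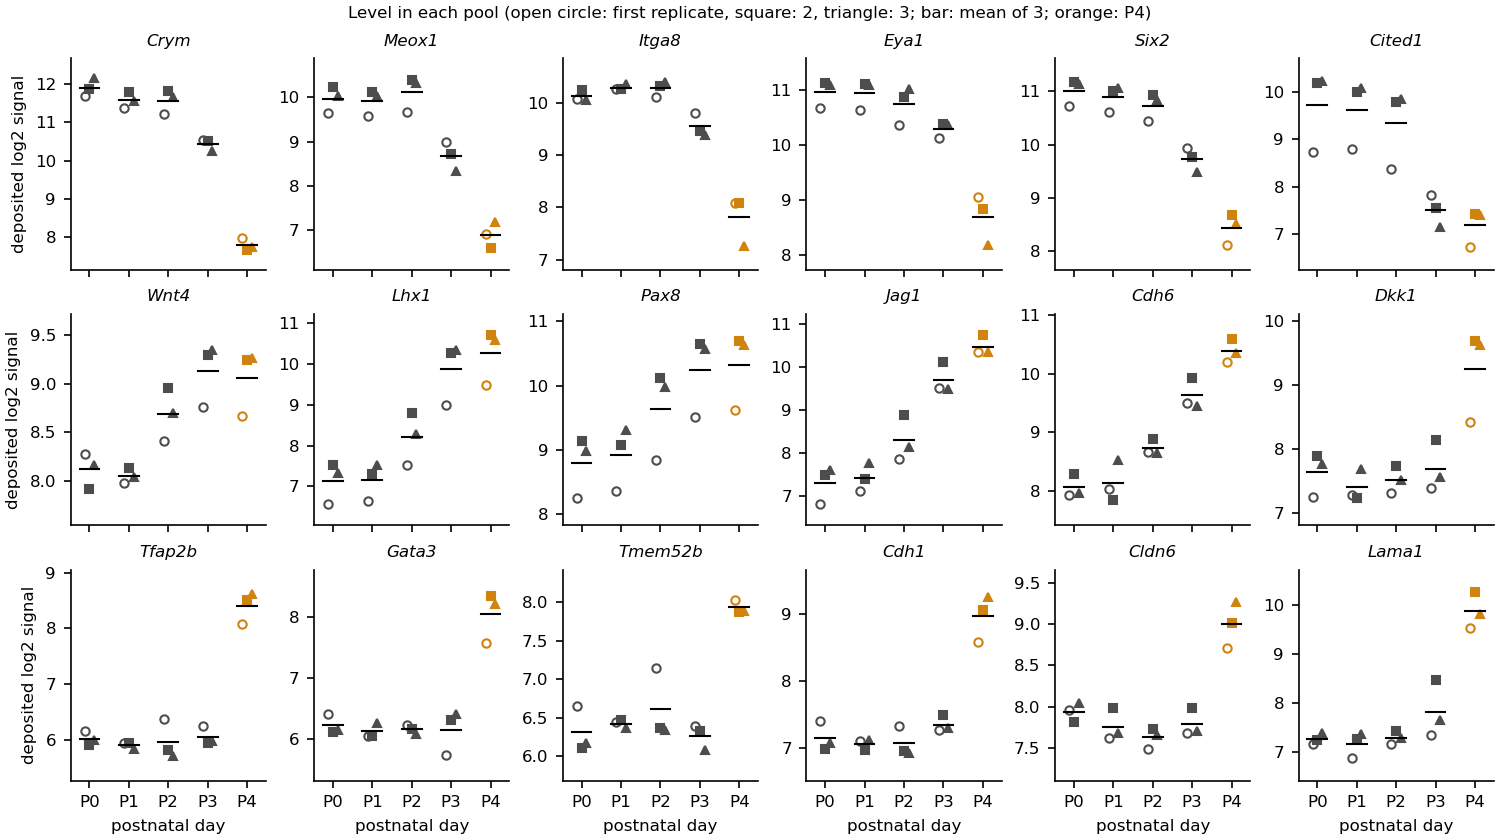
Each panel plots the deposited log2 signal of 1 gene in all 15 pools by postnatal day, with the first replicate as an open circle, replicate 2 as a square, replicate 3 as a triangle, the mean as a bar and the P4 pools in orange. The cap genes from Crym to Six2 are lowest at P4, and Cited1 and the vesicle markers Wnt4, Lhx1 and Pax8 are already near their P4 level at P3. Tfap2b, Gata3, Tmem52b, Cdh1 and Cldn6 are higher at P4 than on the days before.

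The windows before the start sites of 2 of these falling genes are shown because Six2 and Itga8 are markers of the cap on which the reading of the labels turns. They are the 250 bases upstream of the RefSeq start site on GRCm38.p6, written in the direction of transcription. In the Six2 window (chromosome region chr17:85688255-85688504, minus strand) the capitals mark the only match to AGATAA, the letters read by GATA factors, and in the Itga8 window (chr2:12301945-12302194, minus strand) the only match to GCCNNNGGC, the letters read by AP-2 factors. Both strands were searched, and the matches printed here do not overlap each other.
Six2: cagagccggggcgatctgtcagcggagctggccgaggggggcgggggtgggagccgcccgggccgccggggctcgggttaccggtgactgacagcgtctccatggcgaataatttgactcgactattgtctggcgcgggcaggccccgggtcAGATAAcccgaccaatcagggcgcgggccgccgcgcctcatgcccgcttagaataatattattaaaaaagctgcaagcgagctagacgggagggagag
Itga8: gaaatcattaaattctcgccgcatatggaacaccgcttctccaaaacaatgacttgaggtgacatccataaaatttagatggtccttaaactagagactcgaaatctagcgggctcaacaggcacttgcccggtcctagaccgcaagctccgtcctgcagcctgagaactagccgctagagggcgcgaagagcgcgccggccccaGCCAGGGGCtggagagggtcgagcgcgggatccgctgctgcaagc
Of all 32851 RefSeq windows of this length, 9.99% held AGATAA and 13.7% held GCCNNNGGC. Of the 15 largest falls, 9 had a window, and GCCNNNGGC was found in 4 of them, those of Frzb, Igfbp5, Itga8 and Snap91. These matches describe the letters alone.

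Of the genes that mark the pretubular aggregate and the renal vesicle, Wnt4, Lhx1 and Pax8 were not called between P3 and P4. Wnt4, the signal that carries out the transition to epithelium, was 8.77, 9.29 and 9.35 at P3, against 8.67, 9.25 and 9.26 at P4. Its difference was -0.08 ± 0.16 (SE, adjusted p = 0.905, 95% interval -0.41 to 0.26), and that of a second, dimmer Wnt4 probe set (mean 7.79) was -0.28. Lhx1, a homeobox gene required in the renal vesicle, was 8.99, 10.26 and 10.32 in the P3 pools and 9.47, 10.71 and 10.57 in the P4 pools. Its difference was 0.39 ± 0.14 (adjusted p = 0.195, 95% interval 0.09 to 0.69). Pax8, a paired-box gene of the induced mesenchyme, was 9.52, 10.64 and 10.56 at P3 and 9.62, 10.69 and 10.63 at P4, with a difference of 0.07 ± 0.11 (adjusted p = 0.848, 95% interval -0.16 to 0.31). The first replicates were the lowest of their day for all 3 genes, and the groups overlapped. At P0 the means were 8.12 for Wnt4, 7.14 for Lhx1 and 8.80 for Pax8, so the P3 pools, although labelled cap mesenchyme, already carried these renal vesicle markers at levels near those at P4.

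Jag1, the Notch ligand of the vesicle, was 9.53, 10.12 and 9.50 at P3, against 10.35, 10.75 and 10.36 at P4. All P4 pools were above all P3 pools, and the difference of 0.77 ± 0.20 (SE) fell short of the threshold (adjusted p = 0.0506). It passed with the 3 replicate numbers as a block (adjusted p = 0.0337) and without P3 replicate 2 (0.0347) or P4 replicate 3 (0.0449). Its daily rise from P0 to P3 had averaged 0.80, and no difference of the last step from that pace was called (adjusted p = 0.983).

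Of 29 listed genes of the renal vesicle and the pretubular aggregate, 28 were on the array and 27 tested, with 6 rises, 2 falls, 19 not called and a median of 0.20, beside 2.16% of all genes that rose, 1.19% that fell and a median of 0.01. The laminin chain Lama1, a part of the new basement membrane, was 7.34, 8.47 and 7.64 in the P3 pools and 9.53, 10.25 and 9.82 in the P4 pools and rose by 2.05 on the log2 scale (SE 0.18, 4.14-fold, adjusted p = 1.54e-05). Dkk1, a secreted inhibitor of Wnt signalling, was 7.38, 8.13 and 7.55 at P3 and 8.43, 9.69 and 9.63 at P4 and rose by 1.56 on the log2 scale (SE 0.20, 2.94-fold, adjusted p = 0.000304). The homeobox gene Emx2 was 6.65, 7.72 and 7.47 at P3, against 7.91, 8.70 and 8.76 at P4 and rose by 1.18 on the log2 scale (SE 0.20, 2.26-fold, adjusted p = 0.00358). In all 3 genes the groups did not overlap, and the calls held with any of the 6 pools left out. Emx2 passed the filter only with its P4 pools.

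The other rises of the list were not called in every fit with 1 pool left out. The zinc finger gene Osr2 (1.10 ± 0.22, SE), the transcription factor Sox9 (1.21 ± 0.25) and the cadherin Cdh6 (0.75 ± 0.17) were each called (adjusted p = 0.011, 0.0117 and 0.0189) but lost the call in 3 of the 6 fits with 1 pool left out. The adjusted p was then 0.0594 to 0.0682 for Osr2 and 0.0664 to 0.0679 for Sox9, in both without P3 replicate 1, P4 replicate 2 or P4 replicate 3, and 0.0620 to 0.0909 for Cdh6, without P3 replicate 1, P3 replicate 3 or P4 replicate 2. The falls were C1qtnf12, a secreted protein of the C1q and tumour necrosis factor family, which was 10.10, 10.60 and 10.45 in the P3 pools and 9.57, 9.55 and 9.29 in the P4 pools and fell by 0.91 on the log2 scale (SE 0.14, 1.88-fold, adjusted p = 0.0012), and the BMP-binding protein Bmper (-0.69 ± 0.14, adjusted p = 0.0132), whose call was lost without P4 replicate 3 (adjusted p = 0.0722). With 1 pool left out the count of rises was 3 (without P3 replicate 1 or P4 replicate 2) to 10 (without P3 replicate 2), and that of falls 1 (without P4 replicate 3) to 3 (without P4 replicate 1).

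Genes of epithelial junctions and polarity rose or were not called. Of 34 listed genes, 33 were on the array and 22 tested, of which 11 rose and 11 were not called, beside 2.16% of all genes that rose, with a median of 0.42. Cdh1, which encodes E-cadherin, the adhesion molecule of tubular epithelium, was 7.26, 7.48 and 7.29 at P3 and 8.58, 9.06 and 9.24 at P4. It rose by 1.61 on the log2 scale (SE 0.17, 3.06-fold, adjusted p = 5.81e-05). The embryonic tight junction protein Cldn6 was 7.68, 7.99 and 7.70 at P3, against 8.72, 9.02 and 9.27 at P4 and rose by 1.21 on the log2 scale (SE 0.13, 2.31-fold, adjusted p = 6.66e-05). Each P4 pool was above each P3 pool for both genes. Cldn7, another claudin, was 6.95, 7.05 and 6.68 in the P3 pools and 7.69, 8.07 and 8.28 in the P4 pools and rose by 1.11 on the log2 scale (SE 0.16, 2.17-fold, adjusted p = 0.000912), and Spint1, an inhibitor of epithelial surface proteases, was 6.79, 7.02 and 6.95 at P3 and 7.55, 8.11 and 7.89 at P4 and rose by 0.93 on the log2 scale (SE 0.12, 1.91-fold, adjusted p = 0.000264).

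The apical membrane protein Prom1 (1.05 ± 0.16, SE, adjusted p = 0.00101) and the adhesion molecule Epcam (0.71 ± 0.11, adjusted p = 0.00126) also rose in every fit with 1 pool left out. The other rises, Patj, Dsp, Pkp2, Marveld2 and Spint2, lost their call in at least 1 of these fits, and the count of rises ran from 7, without P3 replicate 1, P4 replicate 1 or P4 replicate 2, to 11. The summed signal of the list was 6847 to 7604 in the P3 pools and 8991 to 10145 in the P4 pools. With the Xist covariate, 4 of the 11 rises were called. Spint1 passed the filter only with its P4 pools. Without the filter, 15 of the 33 genes on the array rose and none fell.

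Among genes of the basement membrane and its receptors, 33 were listed, 32 on the array and 29 tested, with 8 rises, 1 fall and a median of 0.18 (2.16% of all genes rose and 1.19% fell). Beside Lama1, the laminin receptor subunit Itga6 was 8.05, 8.56 and 8.08 at P3, against 9.84, 9.71 and 9.44 at P4 and rose by 1.43 on the log2 scale (SE 0.17, 2.7-fold, adjusted p = 0.000214). Fras1, a matrix protein of epithelial basement membranes, was 7.36, 8.03 and 7.60 in the P3 pools and 8.28, 8.80 and 8.76 in the P4 pools and rose by 0.95 on the log2 scale (SE 0.11, 1.93-fold, adjusted p = 0.000167), and its partner Frem1 rose by 1.07 (SE 0.20, adjusted p = 0.00745). Npnt, which encodes nephronectin, the ligand of the integrin that holds Itga8, was 7.55, 7.73 and 7.32 at P3 and 8.02, 8.79 and 8.59 at P4. It rose by 0.93 on the log2 scale (SE 0.16, 1.91-fold, adjusted p = 0.00273). Thus the ligand was higher and the receptor subunit Itga8 was lower at P4, and neither pair of groups overlapped. Frem2, Agrn and Lama5 were the other rises, and each lost its call in 1 or more of the fits with 1 pool left out, in which the list gave 6 to 9 rises.

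Genes used as markers of the loop of Henle and the distal tubule held several of the largest rises. Of 21 listed genes, all on the array, 11 were tested and 10, among them the mature transporters Umod, Slc12a1 and Kcnj1, were under the filter. Of the 11, 5 rose and none fell, with a median of 0.43, beside 2.16% of all genes that rose. However, 4 of the 5, all but Mecom, passed the filter only because of their P4 pools, so this count is in part a consequence of the filter. Without the filter 6 of 21 rose and the median was 0.20. Tfap2b, an AP-2 transcription factor of the distal nephron, was 6.25, 5.95 and 5.99 at P3, against 8.08, 8.51 and 8.61 at P4. It rose by 2.34 on the log2 scale (SE 0.16, 5.07-fold, adjusted p = 1.19e-06). Gata3, a zinc finger factor of the ureteric bud and of distal tubule precursors, was 5.74, 6.31 and 6.40 in the P3 pools and 7.57, 8.34 and 8.20 in the P4 pools and rose by 1.89 on the log2 scale (SE 0.17, 3.7-fold, adjusted p = 2.01e-05). Both genes were above the floor at P4 only, in no pool of P0 to P3.

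The related AP-2 gene Tfap2a was 6.76, 7.63 and 6.75 at P3 and 8.58, 8.58 and 8.76 at P4 and rose by 1.59 on the log2 scale (SE 0.19, 3.02-fold, adjusted p = 0.000177). The membrane protein Tmem52b was 6.39, 6.33 and 6.08 at P3, against 8.02, 7.88 and 7.89 at P4 and rose by 1.66 on the log2 scale (SE 0.14, 3.17-fold, adjusted p = 9.87e-06). The zinc finger gene Mecom rose by 1.30 (SE 0.20, adjusted p = 0.00107). For each of these 3 genes all P4 pools lay above all P3 pools. Of the 12 pools before P4, 1 was above the floor for Tfap2a (P3 replicate 2) and 1 for Tmem52b (P2 replicate 1), so that both entered the test through the P4 pools, as did Tfap2b and Gata3. The summed signal of the list was 2240 to 2430 in the P3 pools and 3697 to 4116 in the P4 pools.

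The upstream windows of Tfap2b (chr1:19211804-19212053, plus strand) and Gata3 (chr2:9878601-9878850, minus strand), the transcription factor genes among the rises that appeared only at P4, are printed on the same build and in the same way. The capitals in the Gata3 window mark 3 matches to GCCNNNGGC that do not overlap, and the Tfap2b window held none of the letters searched.
Tfap2b: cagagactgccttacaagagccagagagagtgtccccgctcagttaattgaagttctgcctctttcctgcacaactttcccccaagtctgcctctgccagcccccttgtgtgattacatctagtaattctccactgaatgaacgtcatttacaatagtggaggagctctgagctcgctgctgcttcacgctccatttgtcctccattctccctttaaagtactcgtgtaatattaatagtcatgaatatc
Gata3: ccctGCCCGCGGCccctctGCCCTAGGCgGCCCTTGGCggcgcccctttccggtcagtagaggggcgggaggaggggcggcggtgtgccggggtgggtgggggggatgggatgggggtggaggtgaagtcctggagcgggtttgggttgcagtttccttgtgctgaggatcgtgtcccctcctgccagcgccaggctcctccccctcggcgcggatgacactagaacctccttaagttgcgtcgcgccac
Of the 15 largest rises, 11 had a window, and Gata3 was the only one of them with GCCNNNGGC. AGATAA was found in 1 of the 11, that of Dpp4, and the TCF/LEF letters CTTTGAT and CTTTGAA, which 3.21% and 4.46% of all windows held, were found in no window of the 11 rises or the 9 falls.

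Markers of the other nephron segments and of the bud held fewer calls among the genes tested. Without the filter the rises were 5 of 18 podocyte, 3 of 19 bud and 2 of 17 proximal tubule genes on the array. The distal list then gave 6 of 21. For the ureteric bud and collecting duct, 12 of 20 listed genes were tested (19 on the array) and 3 rose, beside 2.16% of all genes, with a median of 0.20. They were Gata3, the transcription factor Tfcp2l1, which was 6.66, 6.46 and 6.51 in the P3 pools and 7.33, 7.41 and 7.39 in the P4 pools and rose by 0.83 on the log2 scale (SE 0.13, 1.78-fold, adjusted p = 0.00138), and the keratin Krt18 (0.58 ± 0.14), which was not called in 4 of the 6 fits with 1 pool left out (adjusted p = 0.0529 to 0.142, without P3 replicate 1 or any P4 replicate). Of the defining genes of the bud, Ret and Wnt11 were at or below the floor in all 15 pools, while Hoxb7 (8.18 to 8.74) and Wnt9b (7.19 to 7.57) were above it in every P3 and P4 pool and were not called (adjusted p = 0.418 and 0.984). The summed signal of the bud list was 2649 to 2766 at P3 and 3306 to 3661 at P4, and the bud list shares Gata3 with the distal list. Gata3 and Tfcp2l1 passed the filter only with their P4 pools, so the count of 3 rises is in part a consequence of the filter. The part of bud cells in the rise of the distal genes was not tested.

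Of 20 proximal tubule genes, 17 were on the array and 10 tested, 2 rose and none fell (median 0.16), beside 2.16% of all genes that rose. Lrp2, the endocytic receptor megalin, was 7.02, 6.80 and 6.58 at P3 and 7.61, 7.85 and 7.60 at P4 and rose by 0.89 on the log2 scale (SE 0.11, 1.85-fold, adjusted p = 0.00029), while the call of the anion transporter Slc22a6 (0.48 ± 0.11) was lost in 4 of the 6 fits with 1 pool left out (adjusted p = 0.0704 to 0.137, without P3 replicate 1, P3 replicate 2, P4 replicate 2 or P4 replicate 3). Of 21 podocyte genes, 18 were on the array and 15 tested, 4 rose and none fell (median 0.24), beside the same 2.16% of all genes. Efnb2, an ephrin ligand, was 8.77, 9.26 and 9.25 at P3, against 9.92, 10.30 and 9.89 at P4 and rose by 0.94 on the log2 scale (SE 0.12, 1.92-fold, adjusted p = 0.000237). The others were Npnt, given above, Nes, which encodes the filament protein nestin (0.51 ± 0.12), and Dach1 (0.57 ± 0.11). The call of Nes was lost in 5 of the 6 fits with 1 pool left out (adjusted p = 0.0644 to 0.128, in all but that without P3 replicate 1) and that of Dach1 without P4 replicate 2 (adjusted p = 0.0501), a fit in which 2 of the 4 remained. Nphs1, which encodes nephrin, did not pass the filter.

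Mesenchymal genes fell in part. Of 22 listed and on the array, 19 were tested, 4 fell and 1 rose, with a median of -0.08, beside 1.19% of all genes that fell and 2.16% that rose. Snai2, a repressor of epithelial genes, was 9.45, 9.30 and 9.41 in the P3 pools and 8.65, 8.45 and 8.38 in the P4 pools and fell by 0.89 on the log2 scale (SE 0.15, 1.86-fold, adjusted p = 0.00257). The matrix protein gene Tgfbi was 8.76, 8.96 and 8.36 at P3 and 7.66, 7.98 and 7.64 at P4 and fell by 0.94 on the log2 scale (SE 0.17, 1.92-fold, adjusted p = 0.00453). Cdh11 fell as given above, and the hyaluronan synthase Has2 (-1.16 ± 0.24) lost its call without P3 replicate 1 (adjusted p = 0.0797) or P4 replicate 2 (0.0664). The secreted glycoprotein gene Fstl1 moved the other way, at 8.47, 8.93 and 8.57 at P3, against 9.42, 9.83 and 9.75 at P4, and rose by 1.01 on the log2 scale (SE 0.12, 2.01-fold, adjusted p = 0.000147).

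Markers of vessels, macrophages and red cells were mostly dim and none of them was called, while 2 stromal genes were. Of 24 stromal genes, 22 were on the array and 20 tested, none rose and 2 fell (4 without P3 replicate 3), beside 1.19% of all genes, with a median of 0.04. They were the homeobox gene Meis2, at 10.23, 10.29 and 10.03 in the P3 pools and 9.42, 9.25 and 9.06 in the P4 pools (-0.94 ± 0.12, adjusted p = 0.000384), and the matrix protein gene Tnc, at 8.28, 8.61 and 8.50 at P3 and 7.65, 7.84 and 7.34 at P4 (-0.85 ± 0.15, adjusted p = 0.00443). The stromal list summed to 6207 to 8861 at P3 and 6808 to 7481 at P4. Of 17 endothelial genes on the array, 4 were tested and none was called in limma (1 at an unadjusted p under 0.05, and 1 called without P4 replicate 1), and Pecam1, Kdr, Cdh5, Tek and Emcn were at or below the floor in all 15 pools. The endothelial sum was 1991 to 2287 at P3 and 2017 to 2630 at P4. Of 14 macrophage genes, 3 were tested and none was called (0 at an unadjusted p under 0.05), Csf1r and Adgre1 were at or below the floor throughout, and the sum was 1151 to 1378 at P3 and 1399 to 1509 at P4. These macrophage sums did not overlap between the days, and their part in the results was not tested. Of 7 erythroid genes on the array, 4 were tested and none was called (1 at an unadjusted p under 0.05), with sums of 629 to 685 and 629 to 744. In pooled cells, fewer cells of a type and less RNA per cell cannot be told apart.

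**Figure D3:**
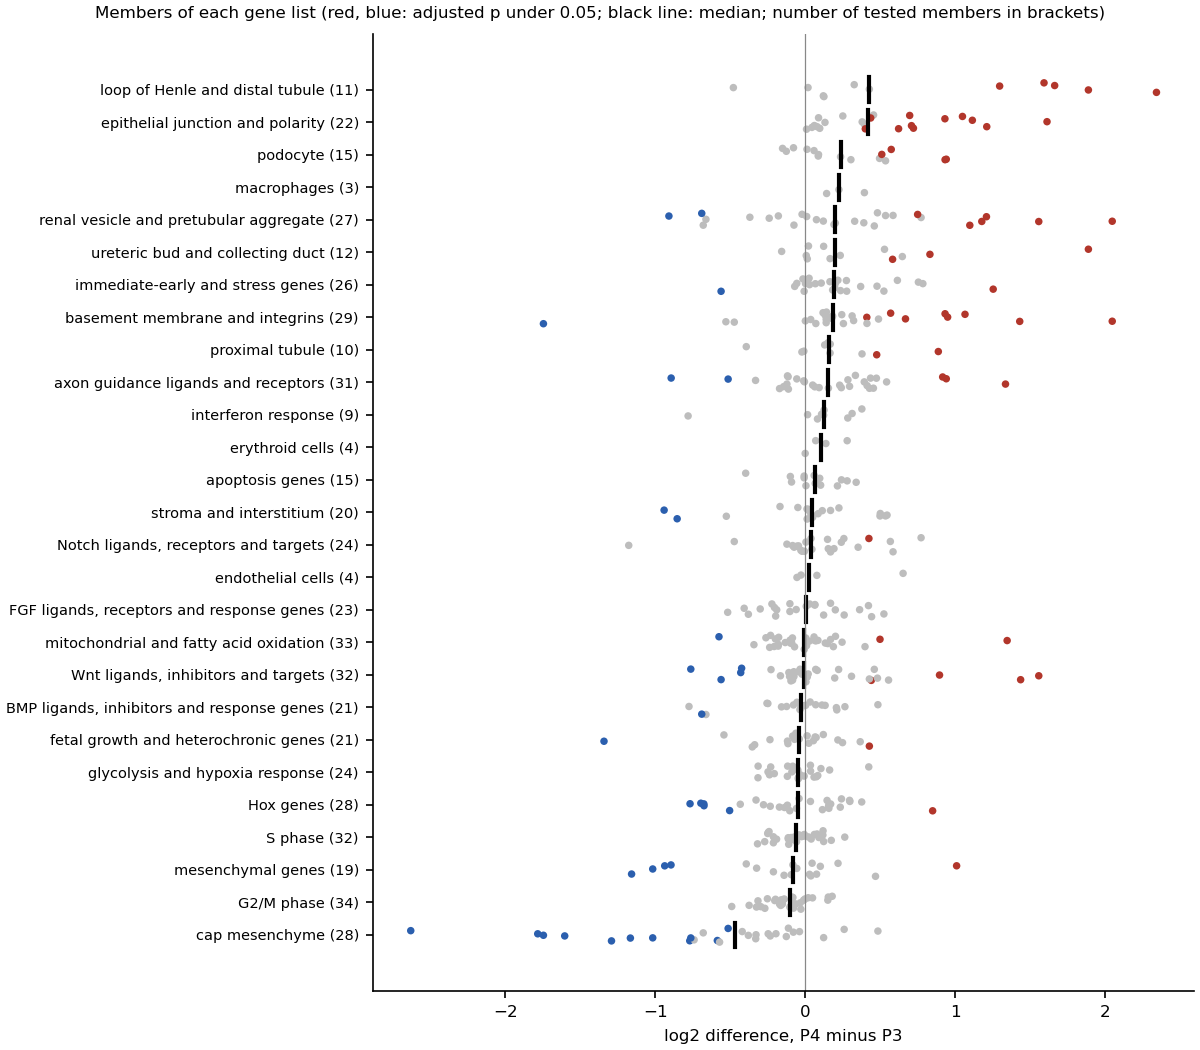
Each row is 1 gene list with the number of tested members in brackets, and each point is 1 member at its log2 difference of P4 minus P3, red or blue where it was called higher or lower and grey where it was not. The black lines are the medians, from 0.43 for the loop of Henle and distal tubule down to -0.47 for the cap mesenchyme.

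The signalling lists moved little as groups. Of 32 tested Wnt genes (39 listed, 38 on the array), 4 rose and 4 fell, with a median of -0.01, beside 2.16% of all genes that rose and 1.19% that fell. Beside Dkk1, the R-spondin receptor Lgr4 was 7.79, 8.66 and 7.89 at P3, against 9.35, 9.82 and 9.47 at P4 and rose by 1.44 on the log2 scale (SE 0.20, 2.71-fold, adjusted p = 0.000686). Its relative Lgr5 was 6.74, 6.81 and 6.44 in the P3 pools and 7.22, 7.97 and 7.50 in the P4 pools and rose by 0.90 on the log2 scale (SE 0.17, 1.86-fold, adjusted p = 0.00799). The R-spondin gene Rspo3 fell, as given above. A further R-spondin gene, Rspo1 (-0.08, adjusted p = 0.887), and the related receptor Lgr6 (-0.11, adjusted p = 0.845) were not called. Lgr5 passed the filter only with its P4 pools. Lrp5, Fzd7, Myc and Tcf7l2 were called too, the first higher and the other 3 lower, and each was lost in 3 or more of the 6 fits with 1 pool left out. The list then gave 3 to 6 rises (6 without P3 replicate 2) and 1 to 3 falls (1 without P3 replicate 1, P4 replicate 1 or P4 replicate 3).

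Of 24 tested Notch genes (28 listed), 1 rose, beside 2.16% of all genes. It was the glycosyltransferase gene Lfng (0.43 ± 0.10, adjusted p = 0.0348), which passed the filter only with its P4 pools. Its call was lost in 5 of the 6 fits with 1 pool left out (adjusted p = 0.0637 to 0.135, in all but that without P3 replicate 3). The median of the list was 0.04. None of 23 FGF genes was called in limma, with 7 at an unadjusted p under 0.05 and a median of 0.01, and of 21 BMP genes Bmper alone was called. Of 31 axon guidance genes (38 listed), 3 rose and 2 fell (median 0.16), beside 2.16% of all genes that rose and 1.19% that fell. The ephrin receptor Epha7 was 7.81, 8.45 and 7.63 at P3 and 9.47, 9.46 and 8.97 at P4 and rose by 1.34 on the log2 scale (SE 0.20, 2.52-fold, adjusted p = 0.00085). The semaphorin Sema6a was 7.55, 7.71 and 7.02 at P3, against 8.40, 8.52 and 8.10 at P4 and rose by 0.92 on the log2 scale (SE 0.17, 1.89-fold, adjusted p = 0.00475). The netrin receptor Unc5c was 9.43, 9.87 and 10.11 in the P3 pools and 8.63, 9.12 and 8.97 in the P4 pools and fell by 0.89 on the log2 scale (SE 0.12, 1.86-fold, adjusted p = 0.000335). For these 3 genes the P3 and P4 pools did not overlap. With 1 pool left out the list gave 3 to 5 rises (5 without P3 replicate 2) and 1 to 3 falls (3 without P3 replicate 2, and 1 without P3 replicate 1, P3 replicate 3, P4 replicate 2 or P4 replicate 3).

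Cell cycle lists gave no calls, beside 3.35% of all genes that were called. None of 34 G2/M genes was called in limma, with 4 at an unadjusted p under 0.05 and a median of -0.10, and 1 was called lower without P3 replicate 3. None of 32 S phase genes was called, with 1 at an unadjusted p under 0.05 and a median of -0.06. The same held for 15 apoptosis genes (1 at an unadjusted p under 0.05), 24 genes of glycolysis and the hypoxia response (1) and 9 interferon response genes (4, with 1 gene called lower without P4 replicate 2).

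Of 33 genes of mitochondria and fatty acid oxidation, 2 rose and 1 fell (median -0.01), beside 2.16% of all genes that rose and 1.19% that fell. Every one of these calls in the list was lost with some pool left out. The coactivator Ppargc1a was 7.22, 6.92 and 6.12 at P3 and 7.76, 8.20 and 8.34 at P4. It rose by 1.35 on the log2 scale (SE 0.27, 2.54-fold, adjusted p = 0.0108), with adjusted p = 0.0501 without P4 replicate 2 and 0.0640 without P4 replicate 3, and its second, dimmer probe set (mean 4.78) differed by 0.29. Its relative Ppargc1b fell by 0.57 (SE 0.13, adjusted p = 0.0212), with 0.0701 to 0.111 without P3 replicate 1, P3 replicate 3 or P4 replicate 1. Acadm rose by 0.50 and was lost in 5 of the 6 fits (adjusted p = 0.0636 to 0.147, in all but that without P3 replicate 2).

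Of 28 Hox genes, 5 fell and 1 rose, with a median of -0.05, beside 1.19% of all genes that fell and 2.16% that rose. Hoxd8 was 8.09, 7.94 and 7.50 at P3, against 8.72, 8.82 and 8.54 at P4 and rose by 0.85 on the log2 scale (SE 0.14, 1.8-fold, adjusted p = 0.00236). The 5 falls were all from 1 cluster, Hoxc4, Hoxc6, Hoxc8, Hoxc9 and Hoxc10. With 1 pool left out there were 0 to 3 Hox falls, 0 of them without P3 replicate 1 and 1 without P3 replicate 3, and none of the 5 was called in every such fit. Of 21 genes of fetal growth, the imprinted retrotransposon-derived Peg10 fell and the RNA-binding protein gene Igf2bp1 rose, the latter by 0.43 with a call lost in 4 of the 6 fits (adjusted p = 0.0917 to 0.195, without P3 replicate 1, P3 replicate 3, P4 replicate 2 or P4 replicate 3). Of 26 immediate-early and stress genes (median 0.19), the matricellular Ccn1 rose by 1.25 and Myc fell by 0.56. Ccn1 was not called without P4 replicate 2 (adjusted p = 0.0599) and Myc in 5 of the 6 fits (adjusted p = 0.0671 to 0.174, in all but that without P3 replicate 2).

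The largest rises lay for the most part outside the list of the renal vesicle and the pretubular aggregate. The gene ccdc198, which encodes a coiled-coil protein, was 5.58, 6.23 and 5.31 in the P3 pools and 8.45, 8.51 and 8.41 in the P4 pools. It rose by 2.75 on the log2 scale (SE 0.25, 6.71-fold, adjusted p = 1.66e-05), the largest rise among named genes. Dpp4, a peptidase of the apical brush border, was 6.73, 7.07 and 6.41 at P3 and 9.15, 9.36 and 9.26 at P4 and rose by 2.52 on the log2 scale (SE 0.17, 5.72-fold, adjusted p = 1.14e-06). The tetraspanin Tspan8 was 6.42, 6.48 and 5.44 at P3, against 8.26, 8.34 and 8.48 at P4 and rose by 2.25 on the log2 scale (SE 0.27, 4.75-fold, adjusted p = 0.000177). The P4 pools lay close together for each of these genes (SD 0.05, 0.10 and 0.12), while P3 replicate 3 was the lowest P3 pool in all 3.

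Mal2, a protein of apical membrane transport in polarised epithelia, was 5.72, 5.52 and 5.55 in the P3 pools and 8.03, 7.31 and 7.34 in the P4 pools and rose by 1.96 on the log2 scale (SE 0.13, 3.89-fold, adjusted p = 1.05e-06). The voltage-gated potassium channel Kcnc2 was 6.04, 6.22 and 6.05 at P3 and 8.20, 7.62 and 7.65 at P4 and rose by 1.72 on the log2 scale (SE 0.13, 3.3-fold, adjusted p = 3.47e-06). For both genes the first replicate was the highest P4 pool. The transcription factor Sim1 was 7.04, 7.78 and 6.92 at P3, against 9.05, 8.69 and 9.37 at P4 and rose by 1.79 on the log2 scale (SE 0.21, 3.46-fold, adjusted p = 0.000177), the fatty acid elongase Elovl7 was 6.99, 5.77 and 5.41 in the P3 pools and 7.85, 7.40 and 7.80 in the P4 pools and rose by 1.62 on the log2 scale (SE 0.22, 3.08-fold, adjusted p = 0.000501), and Dcdc2a, a microtubule-binding protein of cilia, was 7.17, 7.34 and 7.26 at P3 and 8.92, 9.09 and 9.07 at P4 and rose by 1.77 on the log2 scale (SE 0.20, 3.41-fold, adjusted p = 0.000143). The groups did not overlap for any of these genes.

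Some of the largest rises had P3 pools that spread widely, among them Fabp7 (SD 1.21), Elovl7 (SD 0.83, levels given above) and Pantr1 (SD 0.74). Fabp7, a fatty acid binding protein, was 7.91, 8.61 and 6.26 at P3, against 9.48, 9.82 and 9.60 at P4 and rose by 2.04 on the log2 scale (SE 0.40, 4.11-fold, adjusted p = 0.00801). The long non-coding RNA Pantr1 was 6.08, 6.76 and 7.57 in the P3 pools and 8.26, 8.78 and 8.61 in the P4 pools and rose by 1.75 on the log2 scale (SE 0.28, 3.35-fold, adjusted p = 0.00213). P3 replicate 3 was the lowest for Fabp7 and the highest for Pantr1 among the P3 pools, and both calls held without it. The rise of Fabp7 was then 1.33 (adjusted p = 0.000715). In all, 31 tested genes were above the floor at P4 only, and 27 of them, with ccdc198, Tfap2b, Tspan8, Mal2, Gata3 and Kcnc2, were among the 257 rises. They entered the test through the P4 pools, so this share is a consequence of the filter. In a wider sense 276 tested genes passed the filter only with the P4 pools counted, and 53 of them were among the rises. Pantr1, Elovl7, Dpp4, Tmem52b and Tfap2a were among these 53.

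Among the largest falls that are no cap marker in the lists, Snap91, a clathrin adaptor known from synapses, was 8.72, 8.97 and 8.85 at P3 and 7.53, 7.03 and 7.04 at P4 and fell by 1.65 on the log2 scale (SE 0.15, 3.14-fold, adjusted p = 2.09e-05). Cped1 was 10.37, 10.04 and 9.79 at P3, against 8.98, 8.50 and 7.76 at P4 and fell by 1.66 on the log2 scale (SE 0.20, 3.15-fold, adjusted p = 0.000177). The adhesion molecule Cntn3 was 8.63, 8.49 and 8.55 in the P3 pools and 7.50, 7.25 and 6.55 in the P4 pools and fell by 1.45 on the log2 scale (SE 0.20, 2.74-fold, adjusted p = 0.000467). P4 replicate 3 was the lowest pool for Cped1 and Cntn3. Igfbp5, which binds insulin-like growth factors, was 9.14, 9.88 and 10.01 at P3 and 8.17, 8.67 and 8.23 at P4 and fell by 1.32 on the log2 scale (SE 0.15, 2.5-fold, adjusted p = 0.000147). The junctional adhesion molecule Clmp was 8.92, 9.11 and 9.18 at P3, against 7.90, 7.73 and 7.62 at P4 and fell by 1.32 on the log2 scale (SE 0.16, 2.5-fold, adjusted p = 0.000214).

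Frzb, a secreted Wnt antagonist, was 6.83, 7.69 and 8.51 in the P3 pools and 6.34, 6.06 and 6.22 in the P4 pools and fell by 1.47 on the log2 scale (SE 0.27, 2.77-fold, adjusted p = 0.00474). Its P3 values spread from 6.83 to 8.51, the highest in replicate 3, with an SD of 0.84 beside 0.14 at P4. The imprinted Peg10 was 9.37, 9.42 and 8.56 at P3 and 8.23, 7.45 and 7.65 at P4 and fell by 1.34 on the log2 scale (SE 0.20, 2.54-fold, adjusted p = 0.00108). Adam23, an integrin-binding member of the ADAM family, was 7.85, 8.26 and 7.65 at P3, against 6.70, 6.79 and 6.56 at P4 and fell by 1.24 on the log2 scale (SE 0.16, 2.36-fold, adjusted p = 0.000304). Gpx6 (-1.32 ± 0.17, SE) and the olfactory receptor pseudogene Olfr1372-ps1 (-1.78 ± 0.22) completed the 15 largest falls. All pools were separate between the days in these genes.

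Whether the step from P3 to P4 differed from the days before it was tested by setting it against the mean daily change from P0 to P3. The contrast was called higher for 142 genes (1.19%) and lower for 91 (0.766%) in the limma fit. The 142 ran from 103 to 186 with 1 pool left out, and the 91 fell to 47 without P4 replicate 3 and to 57 without P3 replicate 1. It shares the P3 pools with the comparison above, so a high P3 value lowers the step and raises the earlier pace. The largest positive differences, in log2 per day, were 2.73 for ccdc198 (mean daily change before, 0.02, adjusted p = 0.000171), 2.47 for Dpp4 (before, 0.04, adjusted p = 2.12e-05), 2.33 for Tfap2b (before, 0.01, adjusted p = 2.12e-05), 2.25 for Tspan8 (before, 0.00, adjusted p = 0.00146) and 1.96 for Mal2 (before, 0.00, adjusted p = 2.12e-05). Of these 5 genes, 4 were under the floor in every pool before P4 and Dpp4 in all but 1 (P3 replicate 2), so all entered the test through the P4 pools, and their mean daily change before P3 is read from values near or under the floor.

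In the other direction the last step of Crym exceeded its earlier daily change of -0.49 by 2.14 (adjusted p = 3.43e-05), and that of Six2, at -0.43 per day before, by 0.87 (adjusted p = 0.0189). The call of Six2 was lost without P3 replicate 1 (-0.53, adjusted p = 0.0799), P4 replicate 1 (0.0725) or P4 replicate 3 (0.0603). Meox2 had a mean daily change of -0.52 before P3, and no difference of its last step from that was called (adjusted p = 0.61). Hey2, Frzb and Rnase12 had positive mean daily changes before P3 ( 0.73, 0.30 and 0.61) and were lower at P4. The step of Hey2, a Notch target at 7.19, 8.02 and 9.73 in the P3 pools and 6.75, 7.57 and 7.09 in the P4 pools, was not called by itself (adjusted p = 0.0867; 0.0255 without P3 replicate 2), and that of Rnase12 (-1.16 ± 0.23) was not called without P3 replicate 1 (adjusted p = 0.0538) or P4 replicate 3 (0.0556). The step difference of Hey2 was -1.14 without P3 replicate 3 (adjusted p = 0.0292), and it was not called without P4 replicate 2 (0.0567) or P4 replicate 3 (0.0943).

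**Figure D4:**
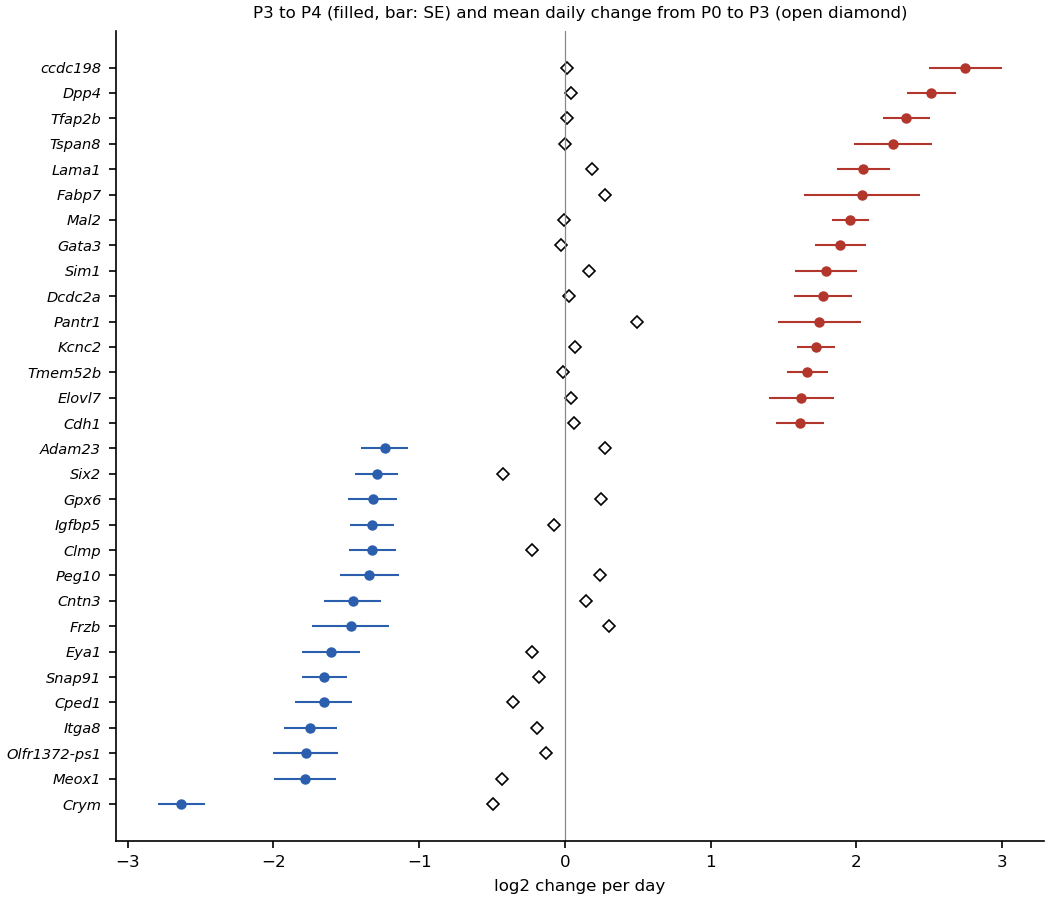
Filled points give the log2 change from P3 to P4 of the 15 largest rises (red), the 15 largest falls (blue), all with bars of 1 SE, and open diamonds give the mean daily log2 change from P0 to P3 of the same genes. The diamonds lie between -0.49, for Crym, and 0.50, for Pantr1, and most rises have a diamond near 0.

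Most of the called changes had the same direction in both array sets. A fit within replicates 2 and 3 alone called 159 genes, and 153 of them (96.2%) had the same sign in the difference between the first replicates, which it did not use, beside 57.4% of all genes tested. In a model with a separate step for each array set, the difference between the steps was called for 0 genes in limma, with 331 at an unadjusted p under 0.05.

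**Figure D5:**
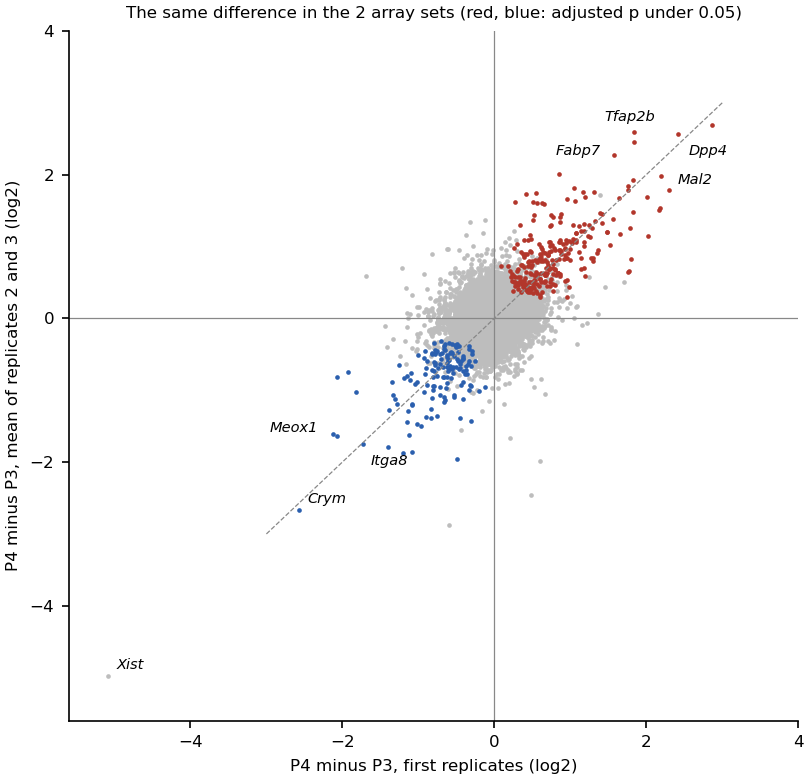
Each point is 1 tested gene, with P4 minus P3 in the first replicates on the horizontal axis and the mean of the same difference in replicates 2 and 3 on the vertical axis, both in log2 units, and the dashed line marks equal values. Genes called higher (red) lie at the upper right and genes called lower (blue) at the lower left, with Xist near -5 on both axes.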

How the data were processed

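Green fluorescent cells of Crym-EGFP kidneys, 3 pools for each day from P0 to P4, were profiled on 1-colour whole-transcript arrays. The authors deposited log2 signal values for 35557 probe sets, which per the labels came from Affymetrix Expression Console (version, algorithm and background correction: not given in the sources used here). A log2 scale is read from the range, 2.38 to 13.76, and the medians, 6.80 to 6.92. The values were used as deposited. Precision is limited by how many arrays there are.

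Of the probe sets, 21789 had 1 symbol in the platform table (21698 matched RefSeq by identifier), 1621 had several and 12147 were not listed. Only the first entered, and the probe set with the highest mean stood for each of 19938 genes (999 had several). Genes above log2 6.863 in at least 3 arrays were kept. limma 3.58.1 in R 4.3.3 was run on all 15 samples with a mean per day and the array set as a term (residual df 9), eBayes and Benjamini-Hochberg adjustment over all 11885 genes, two-sided, at 0.05. The scripts were tested on simulated data. No test is stated for this series in the sources used here.

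Groups came from the day and source in the labels, and the replicate number from the sample title, where the first of each day carries none. The replicate numbers were checked for pairing by correlating deviations from the day means. Intervals are 95% from the moderated t distribution of limma. The comparison, the gene lists (28) and the named genes were chosen with earlier results of these data known. Named by rule were 7 markers (Jag1, Crym, Six2, Pax8, Cited1, Lhx1 and Wnt4), the 15 largest called rises and falls, the 5 largest each way of the step difference, without clone and Gm names, and up to 4 members a list with the smallest p. Further list members were named after their values were seen. List counts are described and not tested, and for those at an unadjusted p under 0.05 the share over all genes is not given. Promoter windows are RefSeq, GRCm38.p6. Alternatives were other batch terms and sample subsets, filters, quantile normalization, averaged probe sets, trended eBayes, each pool left out and an Xist covariate.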

Additional observations from a re-analysis of the deposited data

Results flagged for a closer look

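In 12 results the step from P3 to P4 differed from the mean daily change between P0 and P3 by the limma test of that difference. They are the counts of 142 genes with a higher and 91 with a lower last step, and the 5 largest differences each way. The higher ones were ccdc198 (2.73), Dpp4 (2.47), Tfap2b (2.33), Tspan8 (2.25) and Mal2 (1.96). All 5 of these passed the filter only with their P4 pools, so their earlier change is read from values near or under the floor. The lower ones were Crym (-2.14), Hey2 (-1.90), Frzb (-1.77), Rnase12 (-1.77) and Olfr1372-ps1 (-1.65), all in log2 per day. For Hey2 and Frzb the highest of the P3 pools was replicate 3, the library that stood alone on the third principal component, and without it the difference of Hey2 was -1.14. Hey2 was not called without P4 replicate 2 (adjusted p = 0.0567) or P4 replicate 3 (0.0943).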

How the results depend on the processing

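Deviations from the day mean correlated over all genes between the same-numbered P3 and P4 pools (0.644, 0.403 and 0.329 for replicates 1, 2 and 3). The array set of the first replicates gives such correlations by itself, and pools of different number were not compared. Pairing beyond the array set was therefore not tested. With the 3 replicate numbers as a replicate block, 274 genes rose and 148 fell, and 387 of the 398 calls were shared. The step difference then gave 155 and 97. Without any replicate block the counts were 124 and 53 (step difference 58 and 26), with the 6 samples alone and a replicate block 114 and 54, and within replicates 2 and 3 109 and 50 (step difference 56 and 35). These fits have fewer samples or leave the array sets in the spread. The Xist covariate, an alternative chosen after seeing the data like the array set interaction, gave 61 and 20. With 1 pool left out, rises ran from 157 to 311, falls from 70 to 182, and those of the step difference from 103 to 186 and from 47 to 105. No filter (269 and 125), a filter on the mean (203 and 138), quantile normalization (297 and 189), the mean of probe sets (252 and 135) and a trended robust eBayes (256 and 143) stayed within 1.5 times. In each setting every tested gene of the 398 kept its sign. Signs turned for Cited1 (0.061 within replicates 2 and 3, and -0.674 to 0.238 with 1 pool left out, positive without P3 replicate 1), Wnt4 (-0.188 to 0.050 with 1 pool left out, positive without P4 replicate 1), Eif2s3y (-0.33 with the Xist covariate), Sall1 (0.051 within replicates 2 and 3, 0.005 with the Xist covariate, and -0.123 to 0.029 with 1 pool left out) and Wnt9b (-0.024 with quantile normalization, -0.086 with the Xist covariate, and -0.117 to 0.086 with 1 pool left out), none of them called. The cause was not tested. Values near the floor limit the dim genes, whose folds may be understated.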

Other observations

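Further rises are given here that were chosen after their values were seen. Erbb4, a receptor of the epidermal growth factor family, was 6.58, 6.05 and 5.88 at P3 and 7.75, 7.51 and 7.93 at P4 and rose by 1.56 on the log2 scale (SE 0.13, 2.95-fold, adjusted p = 1.14e-05). Met, the receptor of hepatocyte growth factor, was 7.38, 7.64 and 8.03 at P3, against 8.78, 9.17 and 9.16 at P4 and rose by 1.36 on the log2 scale (SE 0.13, 2.56-fold, adjusted p = 2.75e-05), after a mean daily change of -0.32 from P0 to P3. The annexin Anxa13 was 5.91, 6.17 and 6.14 in the P3 pools and 7.33, 7.84 and 7.39 in the P4 pools and rose by 1.44 on the log2 scale (SE 0.13, 2.72-fold, adjusted p = 1.29e-05). Erbb4, Anxa13 and Cav1, given next, were above the floor at P4 only. Ptgs2, also given next, passed the filter only with its P4 pools.

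The kidney-specific cadherin Cdh16 was 7.08, 7.31 and 7.20 at P3 and 7.86, 8.53 and 8.81 at P4 and rose by 1.20 on the log2 scale (SE 0.18, 2.3-fold, adjusted p = 0.00085). The brush border peptidase Mme was 7.68, 7.79 and 7.90 at P3, against 9.21, 8.96 and 8.77 at P4 and rose by 1.19 on the log2 scale (SE 0.19, 2.28-fold, adjusted p = 0.00173). The sodium pump subunit Atp1b1 was 8.39, 8.45 and 7.61 in the P3 pools and 9.26, 9.41 and 9.32 in the P4 pools and rose by 1.18 on the log2 scale (SE 0.20, 2.26-fold, adjusted p = 0.00264), and the carbonic anhydrase Car4 was 7.14, 7.96 and 7.09 at P3 and 8.20, 9.26 and 9.07 at P4 and rose by 1.44 on the log2 scale (SE 0.22, 2.72-fold, adjusted p = 0.00101). Cav1, the coat protein of caveolae, rose by 1.28 (SE 0.18, adjusted p = 0.000585) and Ptgs2, the inducible cyclooxygenase, by 1.29 (SE 0.21, adjusted p = 0.00217). For none of these genes did the P3 and P4 pools overlap.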
